A study of Caenorhabditis elegans with 6 samples.

Results

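The genes described here are 10 from the nematode Caenorhabditis elegans: 9 whose proteins belong to the X-chromosome dosage compensation complex (sdc-1, sdc-2, sdc-3, dpy-21, dpy-26, dpy-27, dpy-28, dpy-30 and mix-1), and xol-1, which is not a subunit but the switch gene upstream of it. They were taken by gene symbol from the annotation of the Affymetrix C. elegans array, which gave 17 of 22548 tested probe sets. A probe set is the group of oligonucleotides that reads 1 transcript on the array. Of the 10 genes, 7 had 2 probe sets and 3 had 1. The manufacturer marks 9 of the 17 probe sets because some or all of their probes also match other transcripts (called marked below). The worms were of the strain CC1, described by the submitters as wild type, and grew in C. elegans maintenance medium (CeMM). The space condition group (3 arrays) came from worms of mixed stages grown for as many as 10 generations aboard the International Space Station (ISS), exposed there to radiation and microgravity. The ground control group (3 arrays) came from worms passaged on the same schedule on Earth. The arrays are labelled technical replicates, and the sources do not say how many cultures or RNA extracts stand behind a group, so the spread behind each p-value is that among arrays and may be technical.

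In C. elegans, hermaphrodites carry a pair of X chromosomes and males carry 1. The dosage compensation complex assembles on both X chromosomes of hermaphrodites and lowers their transcription so that it comes close to that of the lone male X. Its core is a condensin, a ring-shaped machine that folds chromosomes, and the SDC proteins bring that condensin to the X. In males the product of xol-1 keeps sdc-2 silent and the complex does not form. In hermaphrodites xol-1 is off after early embryogenesis, the SDC proteins load the complex, and they also repress the male-determining gene her-1.

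All values are intensities as deposited. The array medians ran from 102.5 to 128.1. The log2 values of 2 arrays correlated at 0.960 to 0.976 within a group and at 0.926 to 0.952 between groups. Background was read from 8 controls for sequences absent from worms, which lay between 0.562 and 86.7 (median 6.48). The number of arrays limits the precision. A gene is said to have risen or fallen where its adjusted p was under 0.05 (limma, Benjamini-Hochberg adjustment) and its groups differed at least 2-fold, as 7.31% of all probe sets did. On the space arrays 5.15% rose and 2.16% fell. Of the 1648 calls 1162 were rises, and after quantile normalization 883 of 1501. Changes are log2(intensity + 16) of space minus ground, and they are relative to the total signal of each array.

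Of the 17 dosage compensation probe sets, 1 rose, that of dpy-26, and 0 fell, against the 7.31% of all probe sets that did either. Without the 2-fold minimum the count was also 1, against 9.06% of all. Counted by gene, 1 of the 10 rose, against 7.76% of all genes that rose or fell. Before adjustment 3 of the 17 had a p under 0.05 in limma, against 24.6% of all probe sets. The groups did not overlap on 3 of the 17, against 30.2% of all. The median change was -0.07 over the 17 probe sets and -0.01 over all tested. The median size of change, whatever its sign, was 0.34 over the 17 and 0.35 over all.

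**Figure D1:**
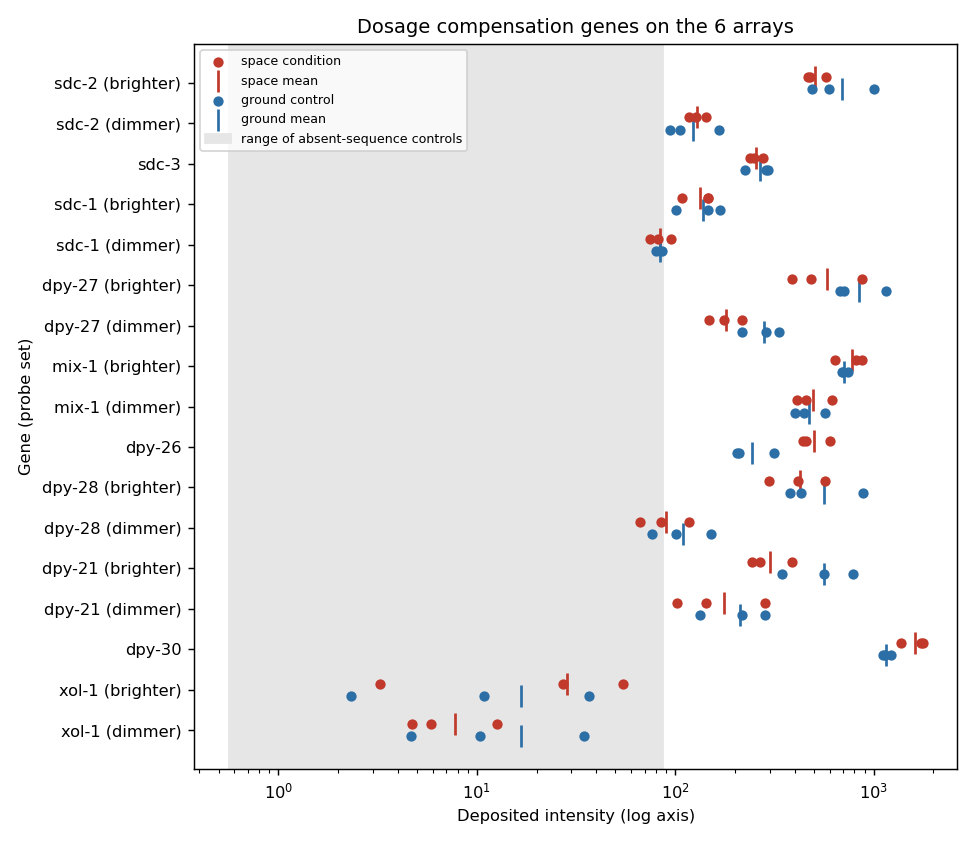
Deposited intensity (log axis) of each probe set of the 10 genes on each array, with red points for the 3 space condition arrays, blue points for the 3 ground control arrays and vertical ticks for the group means. The xol-1 points lie within the grey range of controls for absent sequences (0.562 to 86.7), and the groups are apart for dpy-26, dpy-30 and the dimmer dpy-27 probe set.

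The switch gene xol-1 was close to background in both groups. Its brighter probe set read 3.26, 27.3 and 54.4 on the space arrays and 2.31, 36.9 and 10.9 on the ground arrays. Its dimmer one read 4.71, 12.6 and 5.89 in space and 4.67, 10.4 and 34.8 on the ground. Each of these 12 values lies below the brightest control for absent sequences, the groups overlap on both probe sets, and the changes have opposite signs (0.39 ± 0.54 and -0.37 ± 0.35, SE, with adjusted p of 0.721 and 0.586 in limma). At these intensities a difference in xol-1 was not detectable.

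The SDC genes showed no call. sdc-2 encodes the hermaphrodite-specific protein that starts assembly on the X. Its brighter probe set read 466, 576 and 480 on the space arrays and 598, 491 and 998 on the ground arrays. Ground control 3 stands above the other 5 arrays, which overlap. The change was -0.39 ± 0.29 (SE, adjusted p = 0.474, limma; 95% interval -1.05 to 0.28), and -0.099 without ground control 3. A dimmer sdc-2 probe set had 142, 128 and 117 in space and 106, 94.2 and 167 on the ground, again with ground control 3 highest, and a change of 0.10 ± 0.25 (adjusted p = 0.853).

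sdc-3, which encodes a zinc-finger protein needed to recruit the complex, had the narrowest spread among the brighter SDC probe sets. It read 237, 276 and 249 in space and 285, 293 and 226 on the ground. The groups overlap, the change was -0.07 ± 0.21 (adjusted p = 0.886, limma) and the 95% interval was -0.54 to 0.41. For sdc-1, a further zinc-finger protein gene that is also needed to repress her-1, the brighter probe set read 146, 146 and 108 in space and 101, 168 and 146 on the ground. The change was -0.03 ± 0.25, with an interval of -0.61 to 0.54. The dimmer sdc-1 probe set, whose group means of 83.7 ± 10.5 and 83.5 ± 3.11 (SD, n = 3 each) lie just under the brightest absent-sequence control, stood at -0.002 ± 0.197. For sdc-3 and the brighter sdc-1 probe set these intervals lay within 2-fold in either direction on the log2(intensity + 16) scale. That of the brighter sdc-2 probe set stayed below a 2-fold rise. These intervals reflect the spread among arrays, for changes relative to total signal. With arrays scaled to the RNA standards described below, sdc-3 stood at 0.94 and sdc-1 at 0.91 and 0.89. The median of all probe sets was then 0.82. The dimmer sdc-1 probe set lies too near the absent-sequence controls for a narrow interval to limit a change in its transcript.

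The condensin of the complex, condensin IDC, has the SMC subunits DPY-27 and MIX-1, the kleisin DPY-26, the HEAT-repeat subunit DPY-28 and CAPG-1. DPY-27 is the subunit found in this condensin alone, whereas MIX-1 also works in both mitotic condensins, and DPY-26, DPY-28 and CAPG-1 also work in condensin I. The data of these genes did not run together.

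dpy-26 was the member that rose. Its probe set, which carries the mark of shared probes, read 605, 442 and 454 on the space arrays and 316, 206 and 210 on the ground arrays. Each space array lies above each ground array, and replicate 1 is the highest of its group in both. The change was 1.00 ± 0.25 (SE, adjusted p = 0.0469, limma), a 2.004-fold difference, so the gene lies at both thresholds. The call was lost in 11 of 17 alternatives, with changes of 0.75 to 1.19 over all 17 and adjusted p up to 0.195. After quantile normalization the change was 0.84 (adjusted p = 0.0738). With the mean 5'/3' signal ratio of the actin and Gapdh controls, which reads RNA integrity and labelling, as a covariate it was 0.75 (adjusted p = 0.141). Without any 1 of the space arrays, or without ground control 2 or 3, it was lost, with changes of 0.86 to 1.08 with adjusted p of 0.110 to 0.127.

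dpy-27 was lower in space on both of its probe sets without passing. Its brighter probe set read 872, 390 and 485 on the space arrays and 1154, 674 and 705 on the ground arrays. Replicate 1 is the highest of each group, and space condition 1 exceeds ground controls 2 and 3. The change was -0.56 ± 0.35 (adjusted p = 0.379, limma), and it ran from -0.32 without ground control 1 to -0.89 without space condition 1. The dimmer probe set read 148, 175 and 216 in space and 218, 333 and 286 on the ground. These groups did not overlap, by the narrow margin of 216 against 218, and 13% of all probe sets had space wholly below ground. The change of -0.59 ± 0.24 had an adjusted p of 0.186. Both dpy-27 probe sets carry the mark of shared probes.

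mix-1 hardly differed. Its unmarked probe set read 869, 639 and 818 in space and 691, 701 and 743 on the ground, with overlap and a change of 0.11 ± 0.21 (95% interval -0.38 to 0.59). The marked one read 616, 457 and 413 in space and 446, 571 and 399 on the ground, with a change of 0.06 ± 0.24. Both intervals lay within 2-fold on that scale, for changes relative to the total signal of each array. With arrays scaled to the RNA standards described below, the unmarked and marked probe sets stood at 1.15 and 1.09. The median of all probe sets was 0.82 on that scaling. For dpy-28 the brighter probe set was spread widely, with 298, 415 and 565 in space and 432, 880 and 378 on the ground. Its change of -0.34 ± 0.37 (adjusted p = 0.643, limma) rested on ground control 2, without which it was 0.03. The dimmer dpy-28 probe set ranged from 66.6 to 118 in space and from 76.0 to 152 on the ground, with a change of -0.24 ± 0.29.

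Because DPY-27 takes the place that SMC-4 holds in the mitotic condensins, its transcript was set against that of smc-4 within each array. smc-4 itself read 1169, 755 and 864 on the space arrays and 629, 568 and 546 on the ground arrays, without overlap, a change of 0.64 ± 0.23 (adjusted p = 0.134, limma). The log2 ratio of dpy-27 to smc-4 was -0.42, -0.93 and -0.81 on the space arrays and 0.86, 0.24 and 0.36 on the ground arrays. The difference of the group means was -1.20, with no overlap, and an exact 2-sided permutation test over the 6 arrays gave p = 0.1, the smallest that 3 arrays against 3 allow. With the dimmer dpy-27 probe set the difference was -1.23, and leaving out any 1 array gave -1.02 to -1.36. The ratio of levels of different probe sets has no meaning of its own, and neither transcript passed on its own.

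The remaining subunits are a histone demethylase and a small adaptor. dpy-21 encodes a Jumonji-domain enzyme that converts dimethylated lysine 20 of histone H4 to the monomethylated form enriched on the compensated X. Its brighter probe set, marked as shared, read 386, 268 and 243 on the space arrays and 562, 786 and 344 on the ground arrays. Only space condition 1 reaches into the ground range. The change of -0.83 ± 0.33 did not pass (adjusted p = 0.169, limma; 95% interval -1.60 to -0.07), and it ran from -0.56 without ground control 2 to -1.14 without ground control 3. The unmarked dpy-21 probe set read 285, 102 and 143 in space and 218, 284 and 133 on the ground, with full overlap and a change of -0.30 ± 0.40. That value rested on single arrays, with -0.002 without space condition 2 and -0.68 without space condition 1, and it was -0.77 with the 5'/3' covariate.

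dpy-30 encodes a small protein shared with COMPASS, the enzyme complex that methylates lysine 4 of histone H3. It was the brightest probe set of the 17, with 1722, 1368 and 1766 on the space arrays and 1136, 1111 and 1226 on the ground arrays. Each space array lies above each ground array, as in 17.3% of all probe sets. The change was 0.47 ± 0.21 (adjusted p = 0.207 in limma, 95% interval -0.005 to 0.95). A rise of 2-fold lies outside that interval, for changes relative to total signal. With arrays scaled to the RNA standards described below, dpy-30 stood at 1.52, where the median of all probe sets was 0.82.

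**Figure D2:**
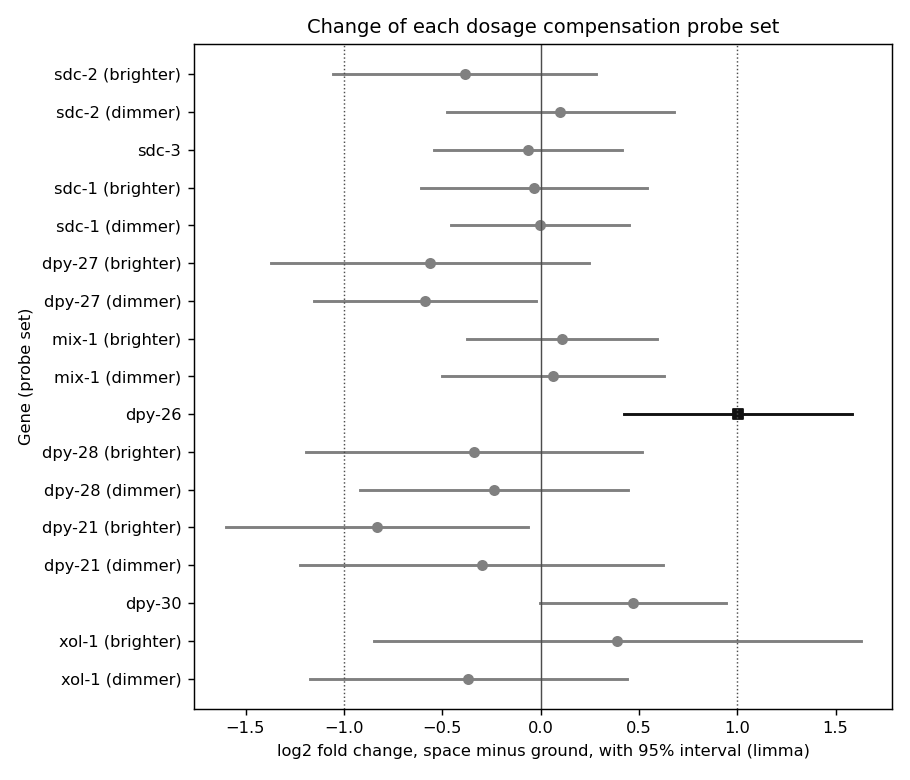
log2 fold change of space minus ground for each probe set of the 10 genes, with 95% intervals from limma and dotted lines at 2-fold. The black square is dpy-26 (1.00), the probe set past the threshold, and the grey circles are those that did not pass, from -0.83 for the brighter dpy-21 probe set to 0.47 for dpy-30.

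By their profiles over the 6 arrays, the genes most like sdc-2 were tmem-131, F36A2.3 and Y73E7A.1, with root mean square differences of 0.116, 0.123 and 0.124 on the centred log2 scale, among 8679 genes above the median intensity. In each of these 3 genes ground control 3 is also the highest array, for example at 3424 for tmem-131 against 1856 to 2314 on the other 5 arrays. The genes most like xol-1 were nhr-173 (0.244), clc-25 (0.308) and EGAP798.1 (0.308), a looser likeness to a profile near background.

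The output of the complex is the level of X-linked transcripts. Genes were placed on chromosomes by the RefSeq table of assembly WBcel235, which put 2352 of the measured genes on the X and 14717 on the 5 autosomes. The X-linked genes were lower relative to the autosomal ones on the space arrays. The median level of X-linked genes minus that of autosomal genes, on the log2(intensity + 16) scale, was -0.10, -0.10 and -0.08 on the space arrays and 0.10, 0.11 and 0.12 on the ground arrays. The group means of -0.09 ± 0.01 and 0.11 ± 0.01 (SD, n = 3 each) differed by -0.20 with no overlap (exact 2-sided permutation test, p = 0.1, the smallest possible). The alternatives kept that sign. Without probe sets marked as shared the difference was -0.10, and among genes above the median intensity of all probe sets it was -0.55.

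Gene by gene, the median change was -0.18 for the X and 0.01 for the autosomes, where single autosomes ran from -0.06 for chromosome V to 0.08 for chromosome III. Of the X-linked genes 2.30% rose and 4.25% fell, compared with 5.84% and 2.13% of autosomal genes and with 5.34% and 2.42% of all genes. The X held 100 falls and 54 rises, and on each of the 5 autosomes rises outnumbered falls. These shares are a description with no test, since genes of a chromosome are not replicates.

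The level of a chromosome relative to the others also differed between the groups for most autosomes. Over all genes the difference was 0.26 for chromosome I, 0.25 for chromosome III and 0.09 for chromosome IV. It was -0.01 for chromosome II and -0.27 for chromosome V. By this measure of median levels the X, at -0.20, did not stand alone. The median change gene by gene was -0.06 for chromosome V and -0.18 for the X. Among genes above the median intensity the difference was 0.01 for chromosome V and 0.08 to 0.15 for the other autosomes, while the X stood at -0.55. There the median level of the 1185 X-linked genes relative to the others was -0.61, -0.53 and -0.50 on the space arrays. On the ground arrays it was -0.01, 0.01 and 0.02. Gene by gene, the median change among these brighter genes was smaller, at -0.27 for the X and 0.11 for the autosomes.

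**Figure D3:**
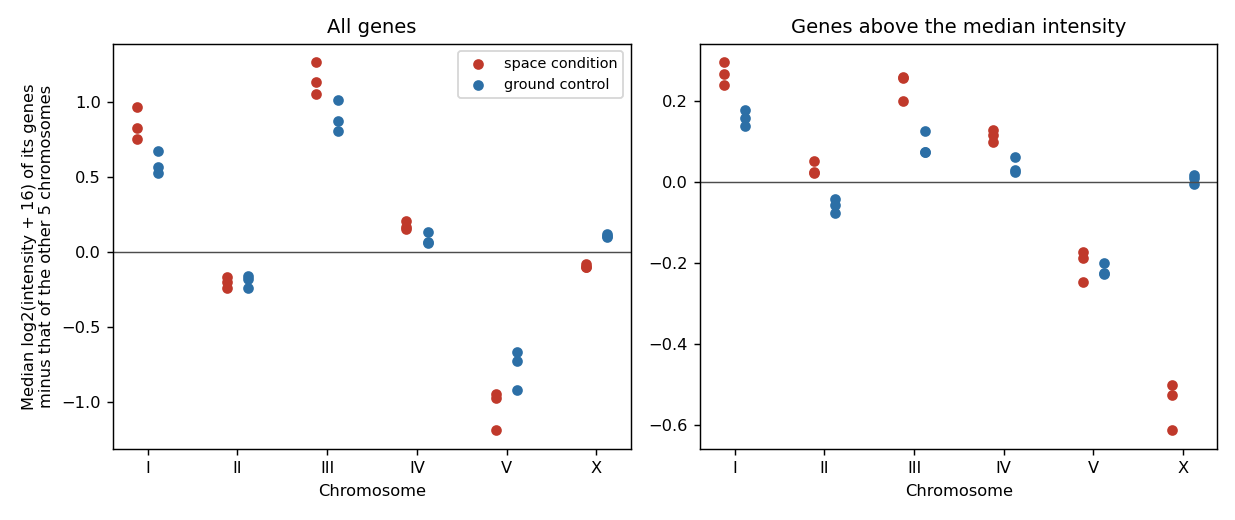
For each chromosome and array, the median log2(intensity + 16) of its genes minus that of the other 5 chromosomes, over all genes (left) and over genes above the median intensity (right, with its own axis). Red points are space condition and blue points ground control arrays. On the right the X moves from 0.01 on the ground to -0.55 in space, and chromosome V hardly moves.

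Markers of the germline also differed between the groups. Of 20 germline marker genes, 14 rose and 0 fell, with a median change of 1.17, and their summed intensity lay between 15145 and 16394 in space, well above the ground range of 6477 to 6837. The list was chosen by name, and 0 of its 20 genes lie on the X, so it does not read germline genes of the X. It includes gld-1 and rec-8, whose same probe sets count again in the sex determination and cohesin lists below. In whole worms, a different number of cells of a type and a different amount of RNA per cell cannot be told apart. Of 13 sperm markers 5 rose and 0 fell (median 0.74), and of 13 oocyte markers 4 rose and 0 fell (median 0.87). The sperm markers that rose were spe-11, ssp-16, msp-77, msp-65 and msp-55, and the msp probe sets are marked as shared. spe-11 lay below the brightest absent-sequence control on each array. Changes were negative for 3 of the sperm markers. Over all genes 5.34% rose and 2.42% fell. The somatic marker lists had median changes of -0.35 for 10 epidermal, -0.33 for 10 body-wall muscle, -0.28 for 10 neuron and -0.09 for 10 intestine genes, against -0.02 for all genes. In the muscle list 1 gene rose and 0 fell, and in each of the other 3 lists 1 fell and 0 rose. The summed intestine intensities overlapped between the groups (15922 to 21457 in space, 18357 to 25492 on the ground). The part of tissue make-up in the difference of the X was not tested. The 5'/3' signal ratio of actin was also higher in space, at -3.12 ± 0.16 against -3.97 ± 0.36 on the log2 scale (SD, n = 3 each). The same ratio of Gapdh overlapped, at -1.50 ± 0.56 against -2.13 ± 1.41 (exact 2-sided permutation test, p = 0.7). With the mean of both as a covariate the X difference was -0.19.

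Genes that act around the complex were described by list, next to the 5.34% of all genes that rose, the 2.42% that fell and their median change of -0.02. Among the related genes named, the probe sets of smc-4, hcp-6, sex-1, fox-1, htz-1, sir-2.1, rec-8 and pkd-2 are marked as sharing probes. Of the 5 condensin genes outside the member list, 1 rose and 0 fell, with a median of 0.64. It was hcp-6, a subunit gene of condensin II, which read 612, 834 and 577 in space and 281, 337 and 267 on the ground (change 1.14 ± 0.23, adjusted p = 0.0242, limma). Its call was lost without any 1 of the 6 arrays, with changes of 0.98 to 1.24 and adjusted p of 0.0507 to 0.0927. It was also lost with the 5'/3' covariate (1.16, adjusted p = 0.0654), with a pseudocount of 1 (adjusted p = 0.0524) and, short of 2-fold at 0.95, after quantile normalization. capg-1, the further subunit of condensin IDC, read 1197, 1811 and 1746 in space and 1059, 1216 and 2283 on the ground, with a change of 0.12 ± 0.33. The brightest of the list, the condensin II gene kle-2, stood at -0.38 ± 0.30 (adjusted p = 0.490).

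The sex signal counts X chromosomes against sets of autosomes through X-linked elements that repress xol-1 and autosomal elements that activate it. Of 5 measured elements 2 fell and 0 rose (median -0.39). ceh-39, an X-linked homeobox gene that represses xol-1, read 208, 221 and 185 in space and 374, 572 and 535 on the ground. The groups are far apart, with a change of -1.19 ± 0.23 (adjusted p = 0.0222, limma). sea-2, an autosomal zinc-finger gene that activates xol-1, read 783, 1084 and 1081 in space and 1809, 2376 and 2040 on the ground (change -1.07 ± 0.23, adjusted p = 0.0295). Elements of opposite effect on xol-1 were thus both lower. The call of ceh-39 was lost without space condition 1, 2 or 3 or ground control 2 or 3 (-1.24 to -1.08, adjusted p = 0.0621 to 0.0868), and that of sea-2 without any 1 of the 6 arrays (-1.17 to -0.92, adjusted p = 0.0520 to 0.0856). With the 5'/3' covariate both were lost (ceh-39 at -1.01, adjusted p = 0.0736, and sea-2 at -0.95, adjusted p = 0.0932), as was sea-2 with a pseudocount of 1 (adjusted p = 0.0629). The X-linked repressors sex-1, a nuclear receptor gene, and fox-1, an RNA-binding protein gene, stood at -0.20 ± 0.25 and -0.39 ± 0.31 and did not pass.

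Below the SDC proteins lies her-1, which encodes the secreted protein that sets male fate. It fell, from 74.4, 92.7 and 85.3 on the ground arrays to 20.1, 11.6 and 9.12 on the space arrays, with a change of -1.77 ± 0.22 (adjusted p = 0.00651, limma). The ground values lie about the brightest absent-sequence control (86.7) and the space values within the range of those controls, so the size of the change depends on the pseudocount. A pseudocount of 1 gave -2.61, and one of 64 gave -0.93, which no longer reached 2-fold. Leaving out any 1 array kept the call of her-1. Male marker genes were low in both groups, with summed intensities over 9 genes of 288 to 454 in space and 481 to 568 on the ground, without overlap. Of these 9, 1 passed as higher in space and 0 as lower, and the other 8 had negative changes. The 1 was pkd-2, a channel gene of male sensory neurons, whose 6 values (9.17 to 84.4) all lie below the brightest absent-sequence control, so no size is given. The part of males among the worms in the change of her-1 was not tested.

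Of 13 sex determination genes, 3 rose and 1 fell, her-1 (median 0.17). The 3 that rose were fog-2, fem-3 and gld-1. fog-2, which lets the hermaphrodite germline make sperm, read 1108, 993 and 1031 in space and 353, 360 and 372 on the ground (1.49 ± 0.19, adjusted p = 0.00651, limma). The masculinizing gene fem-3 rose by 1.35 ± 0.23 and gld-1, which encodes a translational repressor of germ cells, by 1.18 ± 0.21. The call of fem-3 was lost without space condition 2 or 3 (1.27 and 1.38) and that of gld-1 without space condition 1, 2 or 3 (1.06 to 1.25). gld-1 was also lost with the 5'/3' covariate (1.10, adjusted p = 0.0546) and, at 0.999, after quantile normalization, and fem-3 with a pseudocount of 64 (0.985). The brightest of the list, the phosphatase gene fem-2, stood at -0.61 ± 0.20 (adjusted p = 0.107). Both fem-2 and fem-1 (-0.53 ± 0.21, adjusted p = 0.171 in limma) were lower in space without overlap, as was laf-1 (-0.62 ± 0.24, adjusted p = 0.151). Higher without overlap, but short of 2-fold, were fog-3 (0.88 ± 0.21, adjusted p = 0.0412) and fog-1 (0.76 ± 0.22, adjusted p = 0.0764). Over all probe sets 13% had space wholly below ground and 17.3% wholly above. Of the 13 genes, 7 had positive and 6 negative changes.

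On the compensated X, histone H4 carries more monomethylated lysine 20 and the histone variant H2A.Z is reduced. Of 9 genes for H4K20 methylation, H2A.Z and the tethering of chromatin to the nuclear edge, 1 rose and 0 fell, and all 9 had higher means in space (median 0.42). The H2A.Z gene htz-1 read 1328, 1200 and 1536 in space and 414, 466 and 513 on the ground, a wide gap, with a change of 1.51 ± 0.21 (adjusted p = 0.00790, limma). set-1, which encodes the enzyme that makes the monomethyl mark, stood at 0.14 ± 0.20, with the 95% interval from -0.33 to 0.60. set-4, whose product adds further methyl groups and supplies the substrate of DPY-21, stood at 0.58 ± 0.25 (adjusted p = 0.207) with no overlap between the groups. The deacetylase gene sir-2.1, the brightest of the list, was at 0.14 ± 0.32.

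Among 7 partners of DPY-30 in complexes that methylate lysine 4 of histone H3, 1 rose and 0 fell, with a median of -0.04. It was wdr-5.1, which encodes the WD40 core subunit, at 956, 561 and 770 in space and 336, 267 and 284 on the ground (1.30 ± 0.25, adjusted p = 0.0216, limma). This call was lost without space condition 1 or 3 or ground control 2 or 3 (1.12 to 1.27, adjusted p = 0.0592 to 0.0798), with the 5'/3' covariate (1.11, adjusted p = 0.0755) and with a pseudocount of 1 (adjusted p = 0.05003). The brightest partner, the CpG-binding protein gene cfp-1, stood at -0.48 ± 0.24. Of 13 genes for cohesin, its regulators and the related smc-5 and smc-6, 1 rose and 0 fell, with a median of 0.50. It was the meiotic kleisin gene rec-8 (1.38 ± 0.25, adjusted p = 0.0179 in limma). The call of rec-8 was lost without space condition 1 or 2 or ground control 2 or 3 (1.18 to 1.42) and with the 5'/3' covariate (adjusted p = 0.0636). The brightest of that list, the SMC1 gene him-1, stood at 0.50 ± 0.25.

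SUMO, a small protein modifier, is attached to several subunits and is needed for the complex to assemble. Of 7 measured genes of the SUMO pathway 0 rose and 0 fell in limma, and the median was 0.21. The SUMO gene smo-1 read 1364 to 1507 in space and 789.9 to 969.1 on the ground, without overlap, with a change of 0.68 ± 0.20 (adjusted p = 0.0753). The brightest, the SUMO protease gene ulp-4, stood at -0.14 ± 0.24.

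**Figure D4:**
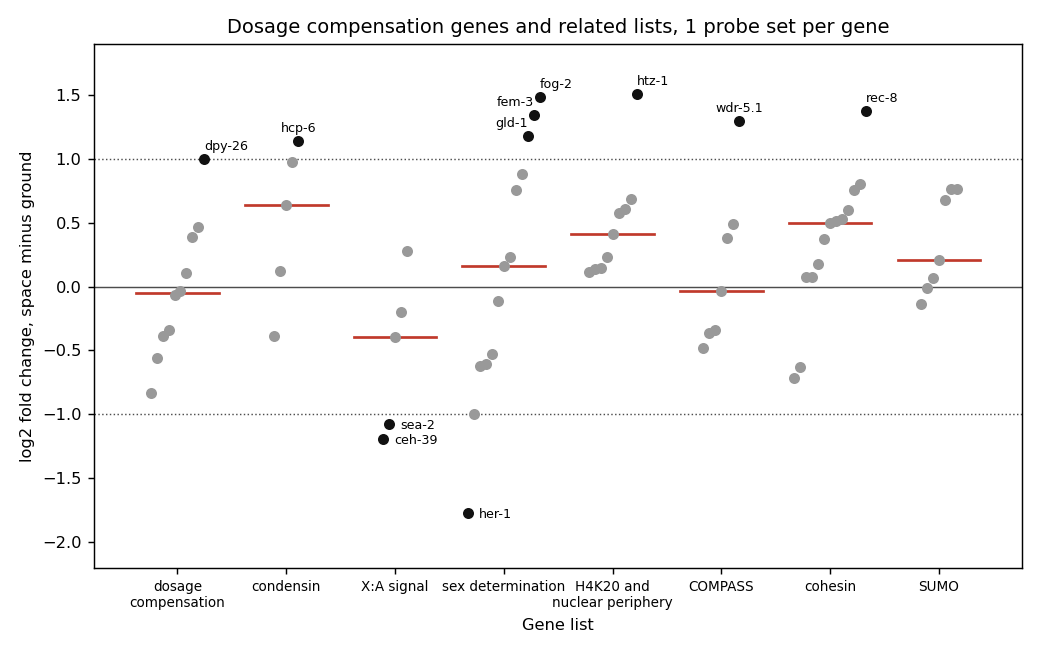
log2 fold change of space minus ground for the 10 dosage compensation genes (left column) and for 7 lists of related genes, with 1 probe set per gene. Black points with names passed the threshold, grey points did not, red lines are list medians and dotted lines mark 2-fold. In the left column dpy-26 is the sole black point, and her-1 is the lowest point of the plot at -1.77.

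Array controls bear on the scale of these changes. RNA standards of bacterial genes that are commonly added to a sample before labelling had a median log2 intensity of 10.40, 10.06 and 9.85 on the space arrays and 11.35, 11.17 and 10.97 on the ground arrays over 24 probe sets. Hybridisation controls, added after labelling, were also lower in space without overlap, at 9.53 to 9.77 against 9.79 to 10.31 (difference -0.46 over 18 probe sets). The sources do not say whether they were added in equal amount per unit of RNA, and the labels' protocols give a range of input RNA. Scaling the arrays to these standards instead of their totals moved the median of all probe sets to 0.82 and called 36.4% of them. All 17 dosage compensation probe sets were then higher in space, by 0.01 to 2.01, and 5 passed: dpy-26, dpy-30, both of mix-1 and the dimmer of sdc-2. Relative to the median of all probe sets, dpy-26 stood at 1.19 and the brighter dpy-27 probe set at -0.35 on that scaling. The difference between X-linked and autosomal genes was -0.20.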

How the data were processed

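Total RNA was labelled with biotin and hybridised to 6 Affymetrix arrays, 3 per group. The values are the linear intensity per probe set that the authors deposited, with the summarisation method not given in the sources used. The 2%-trimmed mean of each array was 500.1 to 500.2, so the deposited arrays share 1 scale. Of 22625 probe sets, 77 controls were left out, and 22548 were tested on log2(intensity + 16) with limma 3.58.1 (lmFit and eBayes) in R 4.3.3, with Benjamini-Hochberg adjustment over all of them. Calls needed an adjusted p under 0.05 and a 2-fold difference. Symbols came from the platform annotation (20766 probe sets with 1 symbol, 887 with several, 895 with none), and RefSeq's table (WBcel235) held the gene of 20701. For gene lists and chromosomes, each gene was read by its brightest probe set. Single values used exact 2-sided permutation tests.

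The members and the gene lists were chosen with earlier results of these data known. Related genes were named where called, where brightest in their list, or, whatever their values, for their role (her-1, capg-1, smc-4, sex-1, fox-1, set-1, set-4 and smo-1); likeness genes were the 3 closest to sdc-2 and to xol-1. Alternatives changed the normalization, pseudocount, intensity filter, variance trend, marked probe sets, a 5'/3' covariate, a replicate block and the arrays included. Same-numbered arrays were checked for shared deviations, and these did not pair every number. The fit was tested on simulated data. Figures used matplotlib 3.10.9 in Python 3.11.15.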

Additional observations from a re-analysis of the deposited data

How the results depend on the processing

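The number of probe sets called over the array was 1648, and the number of dosage compensation probe sets called was 1. With a pseudocount of 1 they were 1027 and 0, without probe sets marked as shared 905 and 0, and with the 5'/3' covariate 1097 and 0. Quantile normalization, median centring and a pseudocount of 64 also left 0 dosage compensation calls. Leaving out 1 array gave 588 to 1201 probe sets and 0 to 1 dosage compensation calls. Without space condition 1 and ground control 3 together, limma called 0 probe sets, 0 of them of dosage compensation, while 5176 of the 22548 tested had an unadjusted p under 0.05. Scaling to the RNA standards, chosen after seeing the data, gave 8209 and 5. The difference in median level of X-linked from autosomal genes was -0.22 with a pseudocount of 1 and -0.15 with 64. It was -0.34 and -0.53 with a mean intensity of at least 32 and 100, and -0.10 without marked probe sets. In genes above the median intensity it was -0.55, and over all probe sets -0.23. In each of these it kept its sign. The difference of dpy-27 from smc-4 could not be had without marked probe sets, since both are marked. The causes of these shifts were not tested.

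Changes that turned sign were of genes that had not passed. After quantile normalization the dimmer sdc-1 probe set stood at 0.011, mix-1 at -0.043 and -0.14, and set-1 at -0.067. With the 5'/3' covariate sdc-1 stood at 0.11 and 0.055, the dimmer mix-1 at -0.076, the dimmer xol-1 at 0.18, sex-1 at 0.0071 and ulp-4 at 0.087. Without space condition 1 and ground control 3 the dimmer sdc-1 stood at 0.029, the dimmer mix-1 at -0.21, the dimmer xol-1 at 0.098, sex-1 at 0.031, kle-2 at 0.0087 and ulp-4 at 0.10. With RNA standards, relative to the median, sdc-3 stood at 0.11, sdc-1 at 0.085 and 0.063, and ulp-4 at 0.10. Leaving out 1 array gave both signs for capg-1 (-0.096 to 0.45), the brighter dpy-28 (-0.56 to 0.028), the dimmer sdc-2 (-0.046 to 0.32), the dimmer mix-1 (-0.10 to 0.20), the brighter and dimmer sdc-1 (-0.22 to 0.10 and -0.082 to 0.067), sir-2.1 (-0.14 to 0.45), ulp-4 (-0.27 to 0.023), and the brighter and dimmer xol-1 (-0.038 to 0.90 and -0.64 to 0.0070).

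With the replicate number as a block, 1741 probe sets and 1 dosage compensation probe set were called, the X difference was -0.20 and that of dpy-27 from smc-4 was -1.20. Same-numbered arrays had correlated deviations of 0.388, 0.058 and 0.171, the first being the highest of any space and ground pair. Space condition 2 correlated best with ground control 3 (0.159), so the numbers were not taken as pairs. Intensities near the absent-sequence controls limit what can be said of xol-1, her-1, pkd-2, spe-11 and the dimmer sdc-1 probe set. Among other listed genes, the same holds for sea-1 of the sex signal and mab-3 of the sex determination list.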
